A study of Mus musculus with 1392 samples.

Results

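The regions described here are the autosomal peaks of a single-cell ATAC-seq count table that had at least 1 count in 20% or more of all cells, young and old cells together. Of 112207 peaks on chromosomes 1 to 19, 5104 (4.55%) met this limit, which corresponds to 279 of 1392 cells. They are called widely open peaks below, and a cell with at least 1 count at a peak is called open there. The members were chosen by these detection values, so their high share of open cells is a description and not a result.

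The cells were haematopoietic stem cells sorted by flow cytometry from the bone marrow of C57BL/6 mice, either young or old, with the phenotype LSKCD150+CD48-CD34-Vwf+. Vwf encodes von Willebrand factor, and all groups shared the gate, the strain and the tissue; no genotype, treatment or age in months is given in the labels. Each sample is 1 cell, and the titles place the cells in numbered sets: Young1 with 181 cells, Young2 with 151, Old1 with 306, Old2 with 380 and Old3 with the rest of 1060 old cells. The labels do not tell what a set stands for (an animal, pooled animals or a plate), and the sets served as replicates, so that the tests weigh differences against a spread that may be technical. Because 76.1% of the cells were old, the limit gave more weight to old cells.

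ATAC-seq uses a transposase that inserts sequencing adapters into DNA that is not covered by nucleosomes, so counts collect at promoters, enhancers and other accessible regions. Promoters of genes that every cell uses are known to be open in most cell types, whereas enhancers differ more between cell types. A diploid cell carries only a pair of copies of each region, and in shallow data most open regions of a cell therefore give no count at all. Haematopoietic stem cells renew themselves and give rise to all blood lineages, and the Vwf-positive ones are known for a bias towards platelets.

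The working description of these regions as open in most stem cells held for few of them as measured. The median widely open peak was open in 24.6% of cells, against 2.80% at the other autosomal peaks, and 51 of them (0.999%) were open in 50% or more of cells. The limit of 30% was reached by 1062 peaks, 40% by 223 and 60% by 3. Of the peaks at the edge of the definition, 46 were open in exactly 279 cells (20.0%) and 55 peaks just outside it in 278 cells. The first of these by position were chr1:36765910-36767198, chr1:82312751-82313751 and chr1:138311405-138312364 inside, with 443, 389 and 454 counts, and chr1:57830791-57832677, chr1:60236828-60238054 and chr1:74640658-74641653 outside, with 395, 396 and 380 counts.

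How many peaks passed 20% followed the depth of the set. The median cell held 6133 counts in Young1, 11807 in Young2, 9623 in Old1, 4434 in Old2 and 3604.5 in Old3. Within these sets taken singly, 3456, 5100, 5103, 2476 and 1136 of the widely open peaks were open in 20% or more of cells, in the same order. In all 5 sets at once, 1065 did so, and 3 were open in 50% or more of cells of every set. In the 144 cells with 20000 counts or more, which came from Young2 (50), Old1 (85), Old2 (7) and Old3 (2), the median widely open peak was open in 72.2% of cells, and 5071 of the peaks (99.4%) were open in 50% or more of these cells.

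To compare sets at equal depth, the share of open cells was computed as its mean over random thinning of all cells to 1906 counts each (10th percentile of the cell totals), which left out 4, 5, 84, 13 and 34 cells of the sets in the order above. The median widely open peak was then open in 8.40% of cells in Young1, 8.41% in Young2, 8.29% in Old1, 8.11% in Old2 and 7.85% in Old3. The sets that had differed strongly without thinning thus lay within a narrow range, with both young sets above the 3 old ones. The mean was 8.40% ± 0.00527 (SD, n = 2) in young and 8.08% ± 0.221 (SD, n = 3) in old sets, a difference of -0.32 percentage points. The choice of peaks favours this direction, because 1255 of them were under the limit in old cells and 32 in young cells. The other autosomal peaks had medians of 0.621% to 0.724%, and the 4926 peaks open in 15% to under 20% of cells had medians of 4.86% to 5.25%. A cell of 1906 counts was expected to be open at a median of 482, 484, 460, 458 and 438 widely open peaks in the 5 sets, and single cells ranged from 352.7 to 575.1.

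Choosing the peaks without a set and then measuring them in that set gave values that the limit had not used. The cells used to call the peaks are not given, so the set left out may have helped to define them. The shares below are therefore a description. Without Old3 the limit gave 7302 peaks, and these had a median of 6.82% open cells at equal depth in Old3, where the other peaks had 0.691%. Without Young2 it gave 3782 peaks with a median of 9.16% in Young2, against 0.661%. Over the 5 sets left out in turn, 78.3% to 83.9% of the chosen peaks were among the same number of most often open peaks of the set left out.

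The widely open peaks were wider than the rest. Their median width was 1295 bp, with a 10th percentile of 815 bp and a 90th of 1893 bp, and the other autosomal peaks had a median of 399 bp. Peaks open in 15% to under 20% of cells had a median of 1119.5 bp. Of peaks 2000 bp or wider, 74.4% were widely open, compared with 22.2% of peaks of 1000 to under 1500 bp and 0.138% of peaks under 300 bp. The widest were chr5:3341113-3344709 with 3596 bp and 36.9% open cells, chr5:43623533-43626726 with 3193 bp and 39.8%, and chr3:58218227-58221293 with 3066 bp and 35.0%. The narrowest were chr13:60777884-60778097 with 213 bp and 21.9%, chr9:83452723-83452945 with 222 bp and 23.8%, and chr12:7932925-7933153 with 228 bp and 20.7%. Width and detection are not independent, since a wider window collects more counts. Per kb, the widely open peaks had a median of 432 counts and the others 105.

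**Figure D1:**
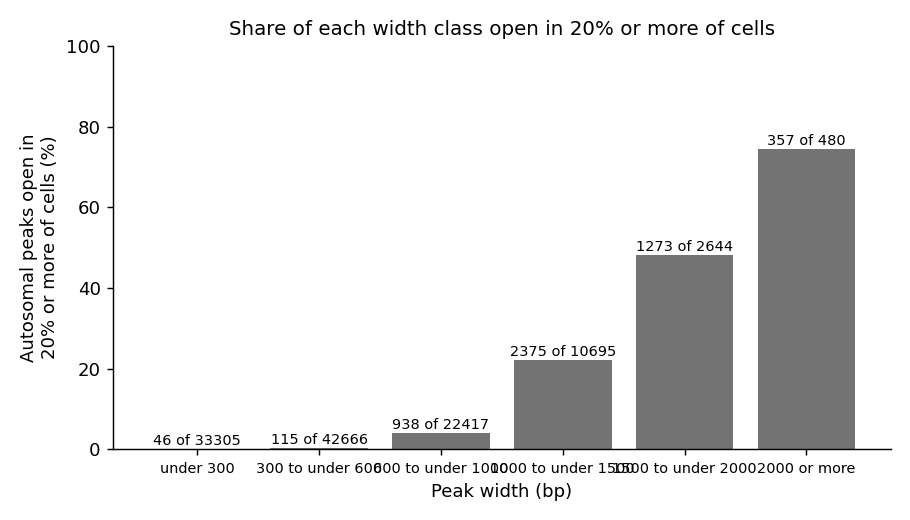
Share of the autosomal peaks in each width class (x axis, bp) that were open in 20% or more of cells (y axis, percent); the numbers over the bars are widely open peaks of all peaks in the class. The share rises from 0.138% under 300 bp to 74.4% at 2000 bp or more.

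Widely open peaks were spread over all 19 autosomes. Their share of a chromosome's peaks ran from 4.15% on chromosome 6 to 5.55% on chromosome 17, 5.58% on chromosome 7 and 5.93% on chromosome 8, where a run of 47 described below is included. The median distance to the nearest other peak, edge to edge, was 4.98 kb, against 3.17 kb at the other autosomal peaks and 4.32 kb at the peaks open in 15% to under 20% of cells. A neighbour within 1 kb was found at 19.2% of widely open peaks and at 28.3% of the others. Over a wider window this difference was not seen, with a median of 9 peaks within 50 kb for both.

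Relative to each other the widely open peaks were mostly solitary. The nearest other one lay at a median of 77.1 kb, 18.1% had one within 20 kb and 119 (2.33%) had none within 1 Mb. With gaps of at most 5 kb, 4822 stood alone, 99 runs held 2, 11 held 3, 1 held 4 and 1 held 47. The most isolated was chr1:113760590-113761804, 5.10 Mb from the next, with 34.6% open cells and equal-depth shares of 12.1%, 14.1%, 12.8%, 14.8% and 11.7% in the 5 sets. The next were chr5:60433881-60434407 at 4.76 Mb, which was 526 bp wide and open in 53.3% of cells, and chr5:14514572-14515759 at 4.22 Mb. The run of 4 spanned chr6:114534552-114544809, with peaks of 400 to 534 bp and median equal-depth shares of 9.85% and 10.5% in young against 6.21%, 6.30% and 6.02% in old. All 4 were called higher in young by the test given below, and 1 was at equal depth.

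The run of 47 spanned chr8:126062361-126148009, 85.6 kb in which the table lists 53 peaks. Its members were narrow for widely open peaks, 0.367 to 0.797 kb with a median of 0.629 kb, and regularly placed: the median step from start to start was 1706.5 bp, and 31 of 46 steps lay within 100 bp of it. They were open in 24.5% to 49.1% of cells with 1.60 to 2.39 counts per positive cell, and 75.8% of all cells were open at 1 or more, with a median of 14 per cell. Their median equal-depth share was 13.7% in Young1, 18.8% in Young2, 12.1% in Old1, 15.6% in Old2 and 15.0% in Old3, so young and old sets overlapped. By edgeR's test, given below, 4 of the 47 were called higher in young from all counts and 0 in old, with 23 lower in old at an unadjusted p under 0.05 and all 47 log2 fold changes between -0.78 and -0.17. At equal depth edgeR called 0, with 4 lower in old at an unadjusted p under 0.05, and DESeq2 called 0 in both. In mouse the genes for 5S ribosomal RNA, a component of the large ribosomal subunit, form a tandem array on distal chromosome 8. The gene table used here, of the assembly GRCm38.p6, lists 53 genes with a 5S ribosomal RNA symbol, 41 of them on chromosome 8, but the peaks are in mm9 and were not assigned to them. Reads from near-identical copies may be placed at any of them, so counts of single peaks in the run are uncertain.

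**Figure D2:**
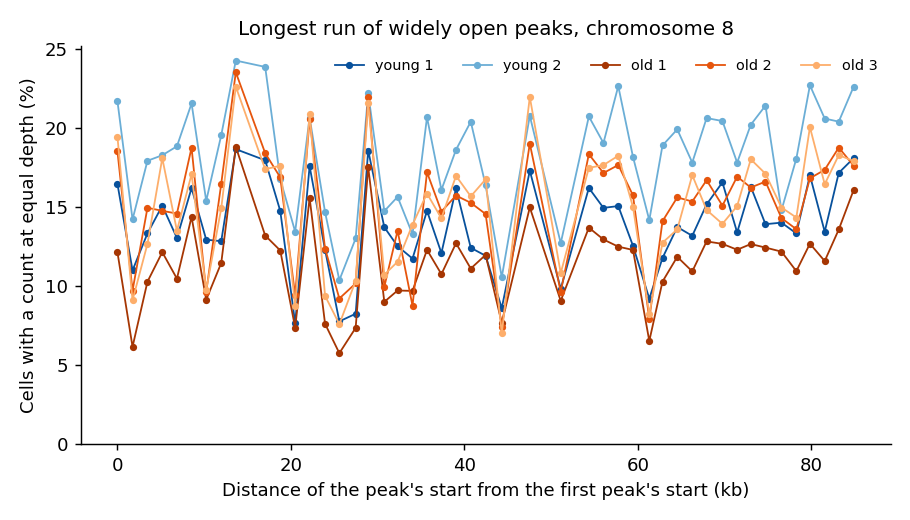
Expected share of cells with a count at equal depth (y axis, percent) at each of the 47 peaks of the longest run against the distance of its start from the first peak's start (x axis, kb), 1 line per set. The 5 lines rise and fall together along the run, with Old1 mostly lowest and Young2 mostly highest, and the medians run from 12.1% to 18.8%.

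A pair of further groups, singled out after their values were seen, held most of the peaks above 50%. On distal chromosome 2, between 174966960 and 177813666, 38 widely open peaks of 888 to 1139 bp were open in 39.0% to 57.6% of cells, and 24 of the 51 peaks at 50% or more lay there. Of all cells, 92.3% were open at 1 or more of the 38. Their median equal-depth share was 28.2% in Young1, 19.8% in Young2, 16.0% in Old1, 22.5% in Old2 and 23.7% in Old3, again with overlap between the ages, and edgeR and DESeq2 called 0 of the 38 different by age, with 7 lower in old at an unadjusted p under 0.05 from all counts. On chromosome 11, between 87235983 and 87285545, 6 widely open peaks included 4 at 50% or more, and their median equal-depth shares were 26.0%, 25.7%, 24.7%, 30.4% and 30.2% in the 5 sets, with 0 called by edgeR or DESeq2 and 0 at an unadjusted p under 0.05.

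Within these groups, counts at different peaks were related across cells to varying degrees. The most alike pair on chromosome 2, chr2:175799624-175800655 and chr2:176329210-176330347, 529 kb apart, was open at both peaks in 712 cells, and in 525 of these (73.7%) the counts were the same. Over 1392 cells the correlation of their log2 counts per 10000 (plus 1) was 0.85. All 38 peaks of the group had a median of 0.35 over 703 pairs, with a lowest value of 0.0011, and the 24 at 50% or more had 0.47 over 276 pairs. The 6 chromosome 11 peaks had a median of 0.076 over 15 pairs, and the 4 at 50% or more had 0.72 over 6 pairs, where the most alike pair lay 7.85 kb apart. The run on chromosome 8 had a median of 0.43 over 1081 pairs. These values are descriptions across cells that share libraries and depth, and how reads with several matches in the genome were treated is not given in the sources used here.

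Of the 5 peaks open in the most cells, 3 were narrow and differed by age, and 2 belonged to the chromosome 11 group and did not pass the test. The peak open in the most cells was chr5:148422919-148423286, 0.367 kb wide, with a count in 951 cells (68.3%). At equal depth it was open in 83.7% and 85.6% of young cells by set and in 43.3%, 45.8% and 35.2% of old cells. The peaks chr8:86280582-86280977 (395 bp, 64.7% of cells) and chr8:73956900-73957161 (261 bp, 60.9%) followed, with equal-depth shares of 75.8% and 80.1% in the young sets against 35.4%, 39.8% and 26.3% in old at the first, and 69.9% and 72.0% against 28.2%, 31.3% and 25.2% at the second. Their log2 fold changes were -2.14, -2.10 and -2.05, with edgeR's adjusted p of 1.65e-11, 3.20e-11 and 1.29e-11. With each cell counted once the values were -0.17, -0.26 and -0.32 and did not pass; without thinning, these peaks were open in up to 93.4% of cells of a young set. Then came chr11:87256211-87257334 with 59.9% of cells and chr11:87275130-87276505 with 58.8%, where the sets of the ages overlapped and edgeR's adjusted p was 0.915 and 0.834.

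Counts per positive cell were higher at widely open peaks than elsewhere. The median was 1.59, with a range of 1.20 to 19.5, against 1.41 at the peaks open in 15% to under 20% of cells and 1.14 at the other autosomal peaks. Of all cell entries above 0 at widely open peaks, 63.0% were 1, 21.7% were 2, 8.43% were 3 and 6.93% were 4 or more, and at the other peaks these shares were 81.8%, 13.9%, 3.04% and 1.31%. If each peak's counts were spread over cells in proportion to cell totals alone (a Poisson expectation), a peak of the same total would have slightly fewer counts per positive cell: the median ratio of observed to expected was 1.09 for widely open peaks, 1.10 for the 15% to under 20% class and 1.08 for the others. By set the median was 1.36, 1.93, 1.81, 1.36 and 1.26, highest in the deepest sets, and at equal depth over all cells it was 1.09 against 1.02 at the others.

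A few narrow peaks stood far above this. Of the 13 widely open peaks with 4 or more counts per positive cell, 12 were under 700 bp wide, and 204 other autosomal peaks also had 4 or more, up to 24.8. The 46 widely open peaks under 300 bp had a median of 2.39 counts per positive cell and a median ratio to the Poisson expectation of 1.35, whereas those of 1000 to under 1500 bp had 1.58 and 1.09. The highest value, 19.5, belonged to chr18:7608697-7609836, which is 1139 bp wide and was open in 23.0% of cells, 3.76 times the expectation and up to 134 counts in 1 cell. It was followed by chr5:148422919-148423286 with 9.77 and up to 154 counts in 1 cell, chr8:86280582-86280977 with 7.75, chr13:111393164-111393428 with 6.21 and chr8:73956900-73957161 with 5.83. At the other end stood chr4:102230282-102231172 with 1.20, chr7:97574608-97575427 with 1.24 and chr10:111542695-111543189 with 1.24.

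**Figure D3:**
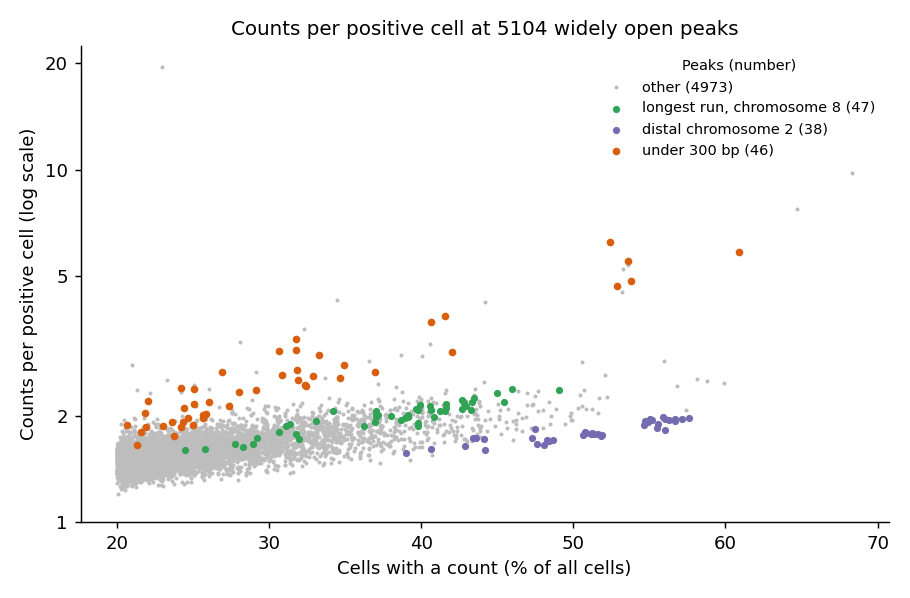
Counts per positive cell (y axis, log scale) against the share of cells with a count (x axis, percent of 1392 cells) for the 5104 widely open peaks, 1 point per peak. Peaks under 300 bp (46, orange) lie mostly above the band of the other peaks, the run on chromosome 8 (47, green) lies within it and the distal chromosome 2 group (38, purple) lies along its lower edge at high shares.

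The widely open peaks held a smaller part of the counts in old sets than in young ones. They took 29.1% of the counts in Young1, 28.6% in Young2, 25.7% in Old1, 27.4% in Old2 and 25.9% in Old3. There was no overlap between the ages, with means of 28.8% ± 0.342 (SD, n = 2) and 26.3% ± 0.958 (SD, n = 3), a difference of -2.50 percentage points. At equal depth the difference was -2.37 percentage points. The peaks under 300 bp made up 0.994% and 1.09% of counts in young and 0.266%, 0.270% and 0.245% in the old ones, and without them the difference was -1.72 percentage points. With each cell counted once, the difference was -0.57 percentage points. The limit itself bears on these shares, because 1255 of the 5104 peaks were under it in old cells and 32 in young cells. The choice of peaks thus favours young sets, and the difference is a description. No test is given for these sums over chosen peaks.

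Old was compared with young at every peak by edgeR's quasi-likelihood test, on set sums of the counts, with a Benjamini-Hochberg adjusted p under 0.05 over all tested peaks, and all 5104 widely open peaks passed the filter on low counts. Of them, 18 (0.353%) were higher in old cells, where 1.39% of all tested peaks were, and 157 (3.08%) were higher in young cells, where 1.78% of all tested peaks were. At equal depth, 20 (0.392%) were higher in old against 0.498% of all tested peaks, and 79 (1.55%) were higher in young against 1.09%. With each cell counted once per peak, 14 (0.274%) were higher in old against 1.54% of all tested peaks, and 50 (0.980%) were higher in young against 1.49%. The limit itself bears on these counts, because 1255 of the 5104 peaks were open in under 20% of old cells and reached it through the young ones. Of the 3861 autosomal peaks open in 20% or more of old cells alone, 24 (0.622%) were higher in old and 73 (1.89%) higher in young. In the 3 fits on the 5104 peaks, the shares called higher in old were below those of all tested peaks. The shares called higher in young were above those of all tested peaks in 2 fits and below in the third. At equal depth, 43 of the 79 calls for young fell on the 46 peaks under 300 bp. The 5058 peaks of 300 bp or wider held 36, a share below the 1.09% of all tested peaks. From all counts these wider peaks held 111 (2.19%), a share above the 1.78% of all tested peaks. The median log2 fold change of old over young was -0.13 for the widely open peaks and -0.01 for all tested peaks, and 0.00 and 0.01 at equal depth.

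The peaks of 15% to under 20%, tested alongside, gave 30 (0.609%) higher in old and 109 (2.21%) higher in young from all counts. At equal depth they gave 13 (0.275%) and 29 (0.613%) of 4731 tested, so the widely open peaks' share higher in old was above theirs there. With each cell counted once they gave 44 (0.893%) and 71 (1.44%). Among the other autosomal peaks, where 51778 were tested from all counts, 779 were higher in old and 816 in young. At equal depth all of the widely open peaks were tested but only 8489 of the others, since the filter removed peaks with few counts. Without Old2 or Old3 the widely open peaks called higher in young fell from 157 to 98 and 95, and those higher in old from 18 to 8 and 7. Without Old1, 40 were called higher in old.

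The share called higher in young was highest in the narrowest 2 width classes and lay between 1.47% and 2.52% from 600 bp upwards. It was 46 of 46 under 300 bp, 31 of 115 (27.0%) of 300 to under 600 bp, 15 (1.60%) of 600 to under 1000 bp, 35 (1.47%) of 1000 to under 1500 bp, 21 (1.65%) of 1500 to under 2000 bp and 9 (2.52%) of 2000 bp or more. Among the other autosomal peaks the calls for young were 4.97% of the tested ones under 300 bp and 1.69% of those of 300 to under 600 bp, and 1.10%, 1.15%, 1.31% and 1.63% in the wider classes. Within the peaks under 300 bp the call rose with the share of open cells, from 2.68% of tested peaks open in under 5% of cells to 7.23% at 5% to 10%, 38.8% at 10% to 15% and 80.0% at 15% to 20%, and the calls for old were 1.08%, 1.73%, 10.2% and 0%. At equal depth the class of 10% to 15% had 4 calls in each direction among 25 tested peaks, and that of 15% to 20% had 12 for young and 0 for old among 35. For peaks of 300 bp or wider the same classes gave 1.18%, 1.29%, 1.67% and 1.66%, and the widely open ones 2.19%. All of these classes were cut on the share of open cells over all cells, which the limit also used. Of the 46 narrow peaks, 26 met the limit through young cells, so the rise and the 46 of 46 are a description. The calls for old fell on 8 peaks of 600 to under 1000 bp, 8 of 1000 to under 1500 bp and 2 of 2000 bp or more.

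**Figure D4:**
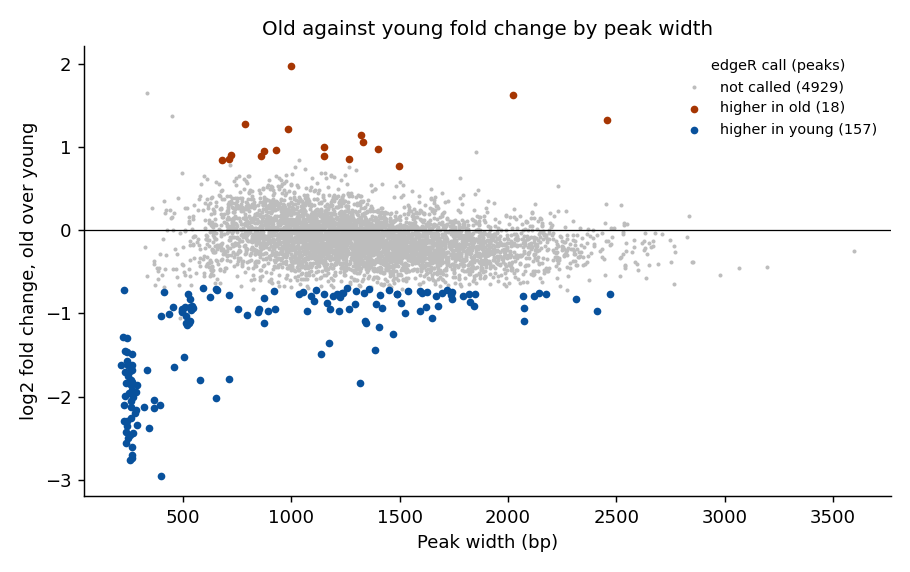
log2 fold change of old over young (y axis, edgeR on counts summed per set) against peak width (x axis, bp) for the 5104 widely open peaks, 1 point per peak. The 157 peaks called higher in young include every peak under 300 bp, and the 18 called higher in old are 678 to 2459 bp wide.

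The 46 narrow widely open peaks lay on 18 chromosomes and were not neighbours, with a median distance of 360.5 kb to the next widely open peak. Without thinning their median share of open cells was 48.9% and 70.2% in young and 28.9%, 17.8% and 12.4% in old. Of the 46, 26 were open in under 20% of old cells and met the limit through young cells, so the choice of peaks favours this direction and their counts of calls are a description. The other 20 were open in 20% or more of old cells alone, and all 20 were called higher in young from all counts and at equal depth. Over all 46 peaks, the median share of open cells at equal depth was 21.8% in Young1, 25.0% in Young2, 5.66% in Old1, 7.02% in Old2 and 6.03% in Old3. The log2 fold changes of the 46 ran from -2.76 to -0.72 with a median of -1.95, and the median was -1.78 at equal depth, where 43 were called. With each cell counted once, the median was -1.07 and 36 were called. The other autosomal peaks under 300 bp together held 6.22% and 6.49% of counts in young and 6.74%, 6.45% and 6.54% in old, so the ages overlapped there. In shallow counts per cell, fewer open cells and fewer counts per open cell are hard to separate, and the part of the narrow peaks' high counts per positive cell in the age difference was not tested.

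**Figure D5:**
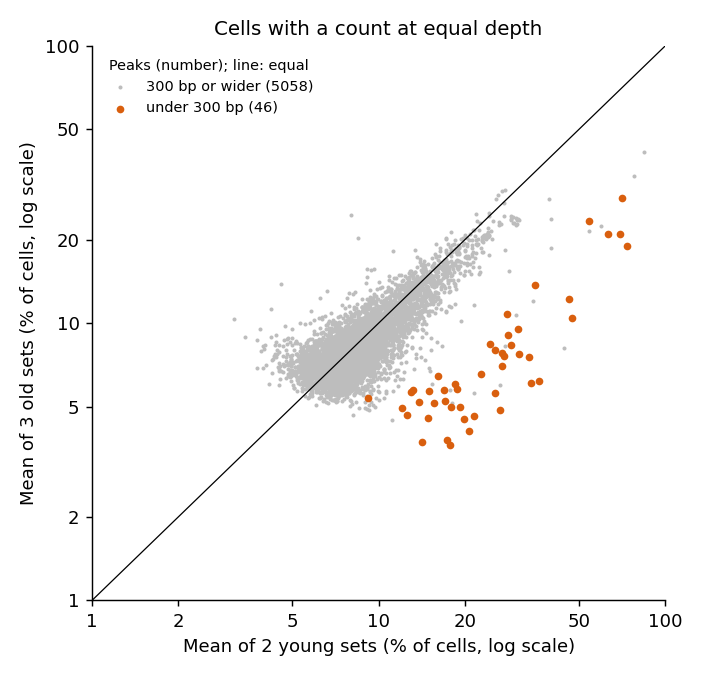
Expected share of cells with a count at equal depth, mean of the 3 old sets (y axis, percent, log scale) against mean of the 2 young sets (x axis, percent, log scale), for the 5104 widely open peaks, 1 point per peak, with the line of equal shares. The 46 peaks under 300 bp (orange) all lie below the line, most of them apart from the main cloud, with median shares of 21.8% and 25.0% in young and 5.66% to 7.02% in old.

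The 10 called peaks with the smallest p among those higher in young and with the sets apart were all narrow. The first was chr2:66027197-66027593, 396 bp wide, with 467 and 498 CPM (counts scaled to the set's size) in Young1 and Young2 and 68.2, 72.9 and 43.2 in Old1, Old2 and Old3. Its log2 fold change was -2.95 ± 0.203 (SE), with an adjusted p of 7.14e-16, and at equal depth its open share was 43.9% and 44.7% in the young sets against 9.23%, 8.96% and 6.25% in old. The peak chr7:145785098-145785351 had 296.9 and 362.1 CPM in young and 50.9, 52.1 and 41.8 in old ones (log2 fold change -2.76 ± 0.197 SE, adjusted p 2.36e-15). The peak chr13:111393164-111393428 was open in 52.4% of all cells, with equal-depth shares of 73.3% and 73.7% in young and 20.4%, 21.4% and 15.1% in old. It had 1115 and 993 CPM in young sets against 183, 174 and 111 in old ones.

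The remaining 7 were all under 300 bp wide. They were chr17:63086805-63087069, chr5:80929805-80930070, chr2:4437011-4437250, chr15:21586154-21586389, chr6:73469952-73470207, chr11:110283499-110283744 and chr10:13121824-13122112, with log2 fold changes of -2.70, -2.60, -2.56, -2.43, -2.46, -2.50 and -2.34. All 10 were also called at equal depth. With each cell counted once, chr13:111393164-111393428, chr15:21586154-21586389 and chr10:13121824-13122112 did not pass, at log2 fold changes of -0.80, -0.64 and -0.87.

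Wide peaks higher in young were singled out after their values were seen, since the rule of smallest p reached none. Of the 157 called, 65 were 1000 bp or wider, and the smallest p among these was at chr9:27020677-27021994, 1317 bp wide. It had 297 and 326 CPM in young and 83.7, 93.8 and 83.7 in old ones, a log2 fold change of -1.84 ± 0.189 (SE) with an adjusted p of 1.95e-10, and equal-depth shares of 34.5% and 34.7% against 11.1%, 12.7% and 12.1%. The peaks chr7:70960821-70961993 and chr3:8766476-8767946 had log2 fold changes of -1.35 and -1.24, also with every old set below the young ones in CPM. Of the peaks 1000 bp or wider, 17 were called higher in young at equal depth and 1 with each cell counted once. That 1 was chr7:70960821-70961993 (log2 fold change -0.88, adjusted p 0.0192), while chr9:27020677-27021994 (-0.79, adjusted p 0.189) and chr3:8766476-8767946 (-0.69, adjusted p 0.108) did not pass. By contrast, chr3:108393849-108395235 had 133 and 150 CPM in young and 54.8, 56.3 and 45.8 in old ones (log2 fold change -1.43, adjusted p 6.70e-07), but its equal-depth shares of open cells overlapped: 8.04% and 9.92% in young and 9.88%, 8.26% and 7.55% in old. At this peak 5 cells held 36.1% of all counts and 1 cell held 135 counts, and with each cell counted once the log2 fold change was 0.045. The peak chr18:7608697-7609836, with the most counts per positive cell, had 1171 and 1019 CPM in young and 370, 405 and 401 in old ones. Its equal-depth shares of open cells were 23.5% and 33.5% against 22.7%, 13.7% and 9.89%. Without thinning the ages overlapped, at 29.3% and 40.4% in young and 31.7%, 17.9% and 11.0% in old. With each cell counted once, its log2 fold change was -0.40 (edgeR's adjusted p 0.451).

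The 18 widely open peaks higher in old cells were moderate in size, with log2 fold changes of 0.77 to 1.97 and a median of 0.97. The smallest p was at chr11:115880192-115882214, 2022 bp wide and open in 43.3% of cells, with 52.8 and 51.6 CPM in young and 143, 190 and 151 in old ones. Its log2 fold change was 1.63 ± 0.217 (SE), with an adjusted p of 3.27e-07, and its equal-depth share of open cells was 7.99% and 8.03% in Young1 and Young2 and 23.7%, 27.3% and 22.9% in old. The next, chr19:5793165-5795624, was 2459 bp wide and had 58.8 and 49.4 CPM in young sets against 130, 158 and 115 in old ones (log2 fold change 1.33 ± 0.216 SE, adjusted p 2.77e-05). The steepest was chr18:35024654-35025654 with a log2 fold change of 1.97 ± 0.307 (SE), from 27.9 and 17.5 CPM in young sets to 52.2, 96.4 and 111 in old ones. At each of these 3 peaks, all old sets were above both young sets.

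The other 7 of the 10 named were chr17:50207603-50208387, chr12:86818231-86819216, chr17:8206415-8207736, chr6:88055773-88057172, chr1:51345504-51346655, chr4:11622796-11623727 and chr17:7315517-7316849. Their log2 fold changes were 1.28, 1.23, 1.15, 0.98, 1.01, 0.97 and 1.07, with edgeR's adjusted p from 0.00046 to 0.00847. Without Young2, 6 of the 10 did not pass: chr12:86818231-86819216 (1.13), chr17:8206415-8207736 (0.77), chr6:88055773-88057172 (1.09), chr1:51345504-51346655 (0.79), chr4:11622796-11623727 (1.11) and chr17:7315517-7316849 (0.71). All 18 kept their direction at equal depth, where 11 were called.

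On chromosome 19, a pair of narrow widely open peaks had a larger fold change than most of the called ones without passing the test, and they were picked out after their values were seen. They were chr19:5840596-5840929 and chr19:5841471-5841918, 0.542 kb apart. The first had 28.9 and 12.1 CPM in young and 28.9, 86.5 and 64.4 in old ones (log2 fold change 1.65 ± 0.759 SE, adjusted p 0.427), so Old1 lay at the level of Young1. At equal depth its shares of open cells were 4.32% and 1.95% in young and 5.72%, 14.2% and 11.1% in old, and the same test gave 2.15 with an adjusted p of 0.000204. Without Old1, the log2 fold change from all counts was 2.09, and the peak was called. The second gave 1.38 ± 0.458 (SE, adjusted p 0.190) from all counts and 1.76 with an adjusted p of 0.000654 at equal depth.

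Some widely open peaks were nearly constant over the sets. The least varied at equal depth was chr7:112547459-112549311, 1852 bp wide, with 17.5% and 17.9% open cells in young and 17.9%, 17.8% and 17.9% in old. The peak chr6:33009665-33010652 had 9.66% and 9.60% in young and 9.73%, 10.0% and 9.92% in old, and chr9:20895803-20896973 had 6.53% and 6.68% against 6.34%, 6.61% and 6.57%. These were chosen for their small spread, so the closeness of the sets is a description.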

How the data were processed

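Chromatin accessibility was profiled cell by cell with a plate-based ATAC-seq protocol, per the labels' protocols. The values are deposited as raw counts for each peak in each cell: they are whole numbers with unequal totals, and no scaling by the authors is visible. Trim Galore, FastQC, Bowtie2, SAMtools, Picard and the build mm9 are named, with no tool version, in the submitters' processing notes. Not given in the sources used here are the peak caller, the cells it was run on, the counting of reads or fragments, the handling of duplicates and of reads with several matches, and any filter on cells. Each of these could change how many counts a narrow or repeated region received.

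Every column matched the title of 1 cell. The members and the lists were chosen with earlier results of these data known. Counts were summed per set, which held 1159957 to 4181770 counts, and fitted over the whole table with edgeR 4.0.16 in R 4.3.3 (filterByExpr at a minimum count of 10, TMM factors, quasi-likelihood test with robust dispersion, old against young). Calls used a Benjamini-Hochberg adjusted p under 0.05. CPM in the text are edgeR's values, scaled by set total and TMM factor, and standard errors are the log2 fold change over the square root of F. For the test at equal depth, each cell was thinned at random to 1906 counts. Shares of open cells at equal depth were computed exactly from the hypergeometric distribution (SciPy 1.17.1). Sums over chosen peaks got no test. On simulated counts the edgeR script was tested first. It called 17 of 96 peaks (17.7%) with a true log2 change of 1 in either direction, and 87 of 100 with a change of 2. Of 54081 peaks without a change, it called 5. The changed peaks were drawn from all tested peaks, so these shares are not specific to widely open ones.

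The peaks named are the 5 open in the most cells, the 3 widest and the 3 narrowest, the 5 with the most and the 3 with the fewest counts per positive cell, the longest run with gaps of at most 5 kb, the 3 farthest from another widely open peak, the 3 on either side of the limit, the 3 that varied least, and in each direction the 10 called peaks with the smallest p among those whose old sets all lay on 1 side of the young ones. Ties were taken by position, and peaks named outside this rule are said to be so. Alternatives concerned the test, scaling, filter, binarized counts, cells, thinning, threshold, limit, narrow peaks, the set number as a block and each set left out. The gene table given is of GRCm38.p6, not mm9, so no peak was given a gene, the sorted cell type was not checked against marker genes, and no sequence is shown. Positions are printed as in the table, with starts that may count from 0 or 1.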

Additional observations from a re-analysis of the deposited data

Results flagged for a closer look

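Outside the autosomes, 63 of 3075 peaks on the X chromosome (2.05%) were open in 20% or more of cells. The fit and the shares of all tested peaks included the X chromosome, but the widely open peaks above did not include these 63. Their median width was 1165 bp, they were open in a median of 22.8% and at most 35.8% of cells, and their median counts per positive cell were 1.49. By edgeR's test 3 of the 63 rose and 2 fell from young to old, where 1.39% and 1.78% of all tested peaks did. These counts are too small for a comparison of shares. Of the 63, 2 were under 300 bp. None of 13 peaks on the Y chromosome reached the limit.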

How the results depend on the processing

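Of 645 fold changes of 47 named peaks under the alternatives, 595 kept the call or its absence, 36 kept direction without the call and 13 gained a call. Among peaks called from all counts, 1 reversed: chr3:108393849-108395235, at 0.045 with binarized counts. The 595 include changes of sign at peaks without a call. For example, chr5:60433881-60434407 went from -0.47 to 0.10 with binarized counts, and chr7:97574608-97575427 from -0.095 to 0.78 at equal depth. The peaks higher in old numbered 5 with DESeq2, 37 in cells of 2000 to 20000 counts, 9 with the set number as a replicate block, 10 at a threshold of 0.01, and 7 to 40 with 1 set left out. At equal depth they numbered 3 with DESeq2, 10 with the replicate block and 4 to 13 with 1 set left out. The peaks higher in young numbered 94 with DESeq2, 50 binarized, 103 without peaks under 300 bp, 94 with the replicate block, 101 at 0.01, 73 with the limit in old cells alone and 95 to 116 with 1 set left out. At equal depth they numbered 47 with DESeq2, 60 with the replicate block, 41 with the limit in old cells alone and 52 to 59 with 1 set left out. Whether equal set numbers pair samples is not given in the labels. Deviations of same-numbered sets correlated at -0.08 and -0.00 over 58167 peaks. The deviations of the 2 young sets mirror each other, so these values cannot decide the question.

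Limits of 15%, 30% and 50% gave 10030, 1062 and 51 peaks, median widths of 1207, 1367 and 1034 bp, nearest peaks at 4687.5, 5929.5 and 6656 bp, and 1.49, 1.81 and 2.09 counts per positive cell. With the limit applied in cells of 2000 to 20000 counts, 3091 peaks passed, with a nearest peak at 5149 bp and 1.65 counts. At equal depth the counts per positive cell were 1.09. With 1 set left out there were 3413 to 7302 peaks, with widths of 1255 to 1323 bp, nearest peaks at 4826 to 5153 bp and 1.54 to 1.64 counts. The difference in the share of counts was -0.57 percentage points when each cell was counted once, and that in open cells -9.38 without thinning. The causes of these shifts were not tested. The alternatives without the longest run, with the limit in old cells alone, and at equal depth for the share of counts and for named peaks, were chosen after the data were seen. The alternative within width classes gives shares, not a median. Depth limits all shares of open cells, and at 1906 counts per cell the other peaks were mostly too sparse to test.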
